A study of Mus musculus with 10 samples.

Results

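The genes described here encode the machinery that copies DNA: the factors that mark and license origins, the replicative helicase and its activators, the polymerases with their clamp and clamp loader, and the factors that finish lagging strands, protect forks and put nucleosomes back. They were chosen by gene symbol from a list of 52 replication factors, and all 52 were found among the 43346 genes of the deposited count table. Polyadenylated RNA came from O9-1 cells, a mouse line derived from the cranial neural crest, in which either *Kat5* or *Ep400* had been edited with CRISPR/Cas9. Kat5 is the acetyltransferase and Ep400 the ATP-dependent remodeling subunit of the Tip60/Ep400 chromatin remodeling complex. There were 4 libraries of unedited wildtype cells (WT), 1 library from each of 3 Kat5 ko clones (Kat5/1 to Kat5/3) and 1 library from each of 3 Ep400 ko clones (Ep400/1 to Ep400/3).

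Each clone is a line of its own, and a clone's library has no replicate of itself. In the description of the clones that accompanied the study, O9-1 cells are tetraploid, the Kat5 ko clones have indels in all *Kat5* alleles with frameshifts as the predicted outcome, clone Ep400/1 has frameshifts in all *Ep400* alleles, and clones Ep400/2 and Ep400/3 keep an allele or alleles with an in-frame deletion. The study places these deletions in the ATP binding site and expects them at least to inactivate Ep400. Its staining detected no Ep400 protein in any Ep400 ko clone. All groups were cultured cells without treatment, and the edited gene is the difference that the labels give. By the study's methods the edited cells were also transfected with plasmids, sorted for EGFP and grown as clones from single cells. Such steps are not described for WT, so editing and these steps cannot be told apart. The comparisons ask how transcripts of the replication machinery differ between each knockout and WT, between both knockouts, and among the clones of one knockout.

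Origins are licensed before S phase, when the origin recognition complex, Cdc6 and Cdt1 load the ring-shaped Mcm helicase onto DNA. At the start of S phase the kinase Cdc7 with its subunit Dbf4, together with cyclin-dependent kinases, lets Cdc45 and the GINS complex join the helicase, and polymerases then extend primers on unwound strands that are coated by RPA. Many of these genes are transcribed mainly in late G1 and S phase, under control of E2F factors, so that in a culture their RNA also depends on how many cells are cycling. In bulk libraries, fewer cells in S phase and less RNA per cell cannot be told apart.

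A sequence feature that had played no part in the choice was present in a minority of the promoters of the replication genes, at a higher share than among all promoters. RefSeq windows (assembly GRCm38.p6) that run from 250 bases before to 50 bases after the transcription start were given for 43 of the 52 genes. The letters TTTCGCGC or TTTGGCGC, which are forms of the E2F motif, occurred on either strand in the windows of 11 of these 43 genes (25.6%), against 251 of 27025 genes with a window (0.929%). The following stretches of 30 bases are centred on the matches where the window allows it, are written 5′ to 3′ on the strand of the gene, and have the matched letters in capitals. They are shown because they carry these letters, which read in either direction.
Cdt1 (chr8:122568035-122568064, plus strand): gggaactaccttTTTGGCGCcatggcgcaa
Clspn (chr4:126556990-126557019, plus strand): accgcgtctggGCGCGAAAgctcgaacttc
Lig1 (chr7:13278841-13278870, plus strand): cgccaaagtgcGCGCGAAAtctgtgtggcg
Mcm3 (chr1:20820263-20820292, minus strand): cgggaaaacttgggaagtTTTGGCGCcaag
Mcm5 (chr8:75109347-75109376, plus strand): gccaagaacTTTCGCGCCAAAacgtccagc
Mcm6 (chr1:128359795-128359824, minus strand): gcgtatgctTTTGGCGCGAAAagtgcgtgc
Mcm6 (chr1:128359734-128359763, minus strand): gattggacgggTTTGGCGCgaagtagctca
Mcm7 (chr5:138171849-138171878, minus strand): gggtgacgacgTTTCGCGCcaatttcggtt
Orc1 (chr4:108579416-108579445, plus strand): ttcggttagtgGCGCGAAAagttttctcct
Pola1 (chrX:93632275-93632304, minus strand): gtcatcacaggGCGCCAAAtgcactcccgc
Pole2 (chr12:69228162-69228191, minus strand): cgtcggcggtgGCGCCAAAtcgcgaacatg
Rfc3 (chr5:151651200-151651229, minus strand): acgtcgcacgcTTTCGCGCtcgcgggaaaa
Matches in *Mcm5* and in the first stretch of *Mcm6* are each an overlapping pair on opposite strands, and *Mcm6* held a further match closer to its start. The matches in *Cdt1*, *Clspn*, *Lig1*, *Mcm3*, *Mcm7* and *Pole2* began 11 to 39 bases into the transcript, and those in *Mcm5*, *Mcm6*, *Orc1*, *Pola1* and *Rfc3* began 10 to 153 bases before the start. All starts in this part are those of RefSeq. The gene positions given below come from the GENCODE annotation, in which *Orc1* and *Rfc3* start upstream of their matches (*Orc1* at 108579423). For *Orc1*, which codes for the largest subunit of the origin recognition complex, and for *Mcm6*, which had the most matches, the 200 bases before the start are given in full, for *Orc1* at chr4:108579254-108579453 on the plus strand and for *Mcm6* at chr1:128359706-128359905 on the minus strand, with the same letters in capitals.
Orc1: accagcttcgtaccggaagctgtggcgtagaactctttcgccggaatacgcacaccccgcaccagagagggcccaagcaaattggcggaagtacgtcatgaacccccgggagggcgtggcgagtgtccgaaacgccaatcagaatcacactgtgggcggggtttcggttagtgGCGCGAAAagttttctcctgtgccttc
Mcm6: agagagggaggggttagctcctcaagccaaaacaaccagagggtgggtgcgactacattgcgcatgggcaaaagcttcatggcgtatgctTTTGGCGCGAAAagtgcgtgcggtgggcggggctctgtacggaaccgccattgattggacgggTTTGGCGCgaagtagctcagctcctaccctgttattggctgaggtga
The CCAAT box (letters CCAAT) was found in windows of 24 of the 43 genes (55.8%) and of 41.1% of all genes with a window. The CHR element (letters TTTGAA or TTCGAA), which is found in many promoters of the late cell cycle, was present in 9 of the 43 (20.9%) and in 21.7% of all genes. Both were searched on either strand, and a CCAAT match can share its first letter with the end of an E2F match, as in *Mcm7*. A match is a description of the letters and not of binding.

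All 52 genes were expressed in WT cells, and every one passed the filter on low counts in each comparison. Counts divided by exon length and scaled to an equal sum per library (TPM) compare genes only as far as the annotated exon lengths hold. TPM were highest for *Pcna*, the sliding clamp, at 226 ± 29.8 (SD, n = 4). It was followed by *Mcm3* at 219.7 ± 9.24 and *Pold2*, a subunit of polymerase delta, at 219 ± 17.0. These neighbours did not differ beyond their spread. Of the helicase subunits, *Mcm3*, *Mcm4*, *Mcm5*, *Mcm6* and *Mcm7* had WT means between 187 and 219.7, whereas that of *Mcm2* was 103 ± 2.56. The exon length used was 6956 bases for *Mcm2* and 3589 to 4666 bases for the others. Before division by length, mean WT counts scaled to equal library size (CPM) were 220 for *Mcm2* and 210 to 302 for the others. The lower TPM of *Mcm2* thus depends on its exon length. Whether that length suits the transcripts in these cells was not tested. At the low end were *Dna2*, a nuclease and helicase that trims long flaps, at 5.40 ± 0.462, and *Orc1* at 11.7 ± 1.48.

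Between 30968945 and 48301792 reads per library were counted on genes. *Kat5* had 48.8 to 57.5 CPM (counts scaled to equal library size, with TMM factors) in WT libraries and 16.4 to 23.2 in Kat5 ko clones, and *Ep400* had 157 to 165 CPM in WT libraries and 54.7 to 61.4 in Ep400 ko clones. Of 14 neural crest and mesenchyme markers, *Sox10* and *Foxd3* were at 0 in all libraries, and the summed level of the list was 1765 to 1999 CPM in WT, 1759 to 1999 in Kat5 ko and 2542 to 3755 in Ep400 ko libraries. In Ep400 ko clones *Prrx1* had 882 to 2158 CPM (651 to 952 in WT) and *Pdgfra* 520 to 648 (105 to 136 in WT). All Ep400 ko clones were above all WT libraries for *Twist1*, *Snai2*, *Tfap2a* and *Pdgfra*, and below them for *Sox9* and *Snai1* (16.1% and 14.1% of all genes). The smooth muscle list reached 685 CPM in 1 Kat5 ko clone and 58.8 in 1 Ep400 ko clone, against at most 16.6 in WT libraries, and each of the other lists of cell types summed to at most 25.5 CPM. Clone Ep400/3 stood apart from the others by its mitochondrial share of 3.24%, against 0.893% to 2.43% elsewhere. The part of these features in the results below was not tested.

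Taken clone by clone, most replication genes went the same way in 4 of the clones and both ways in the other two. In Kat5/2 and Kat5/3 most of them lay above all WT libraries, in Ep400/3 nearly all lay below, in Ep400/2 more lay below than above, and in Kat5/1 and Ep400/1 they lay on both sides. Their summed level was 4287 to 4716 CPM in the WT libraries, 4293, 6593 and 5794 CPM in Kat5/1 to Kat5/3, and 4700, 3695 and 1889 CPM in Ep400/1 to Ep400/3. Thus the sums of Kat5/1 and Ep400/1 were within the WT range and those of the other 4 clones outside it, Kat5/2 and Kat5/3 on the high and Ep400/2 and Ep400/3 on the low side.

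The median log2 difference of the 52 genes from the mean of the 4 WT libraries was −0.015 in Kat5/1, 0.52 in Kat5/2 and 0.38 in Kat5/3. It was 0.078 in Ep400/1, −0.31 in Ep400/2 and −1.20 in Ep400/3, while single WT libraries differed from the mean of the other 3 by −0.13 to 0.12. For all genes tested, the medians of the 6 clones were between 0.0083 and 0.052. The clones of one knockout thus spread more widely than the WT libraries. Each clone grew from a single cell, whereas the WT libraries are replicates of the unedited line. The source of the wider spread was not tested.

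**Figure D1:**
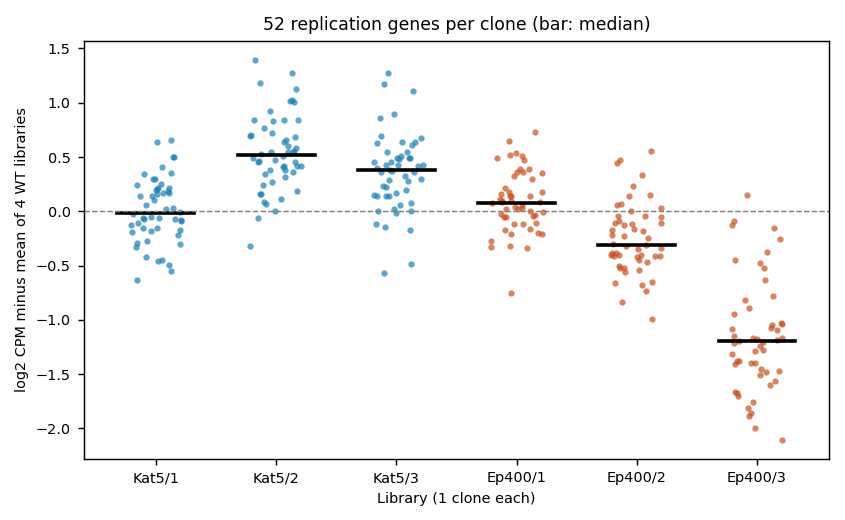
Log2 CPM of each of the 52 replication genes (points) in each knockout clone, as the difference from the mean of the 4 WT libraries, with the median of the 52 as a bar. The medians run from 0.52 in Kat5/2 down to −1.20 in Ep400/3, and those of Kat5/1 and Ep400/1 are near 0.

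In clone Kat5/1, 18 of the 52 genes were above the highest and 13 below the lowest WT library, when 27.9% of all genes tested were above and 27.9% below. In Kat5/2, 44 were above (34.7% of all genes) and 0 below (34.1% of all genes). In Kat5/3, 37 were above (33.8% of all genes) and 1, *Gmnn*, was below (32% of all genes). Geminin, the product of *Gmnn*, inhibits Cdt1 and so keeps origins from being licensed again. In Ep400/1, 20 genes were above (32% of all genes) and 6 below (29.6% of all genes). In Ep400/2, 6 were above (33.5% of all genes) and 31 below (31.8% of all genes). In Ep400/3, 1 gene, *Orc3*, was above (37.6% of all genes) and 47 were below (34.5% of all genes), with the licensing factors at a median difference of −1.70 and the origin recognition genes at −0.55. The lowest in Ep400/3 were *Cdt1* at 22.8% of the WT mean, *Orc1* at 24.6% and *Mcm5* at 27.0%. *Orc4*, *Orc5* and *Pole3* stayed at 90.0% to 93.4% of it in the same library.

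**Figure D2:**
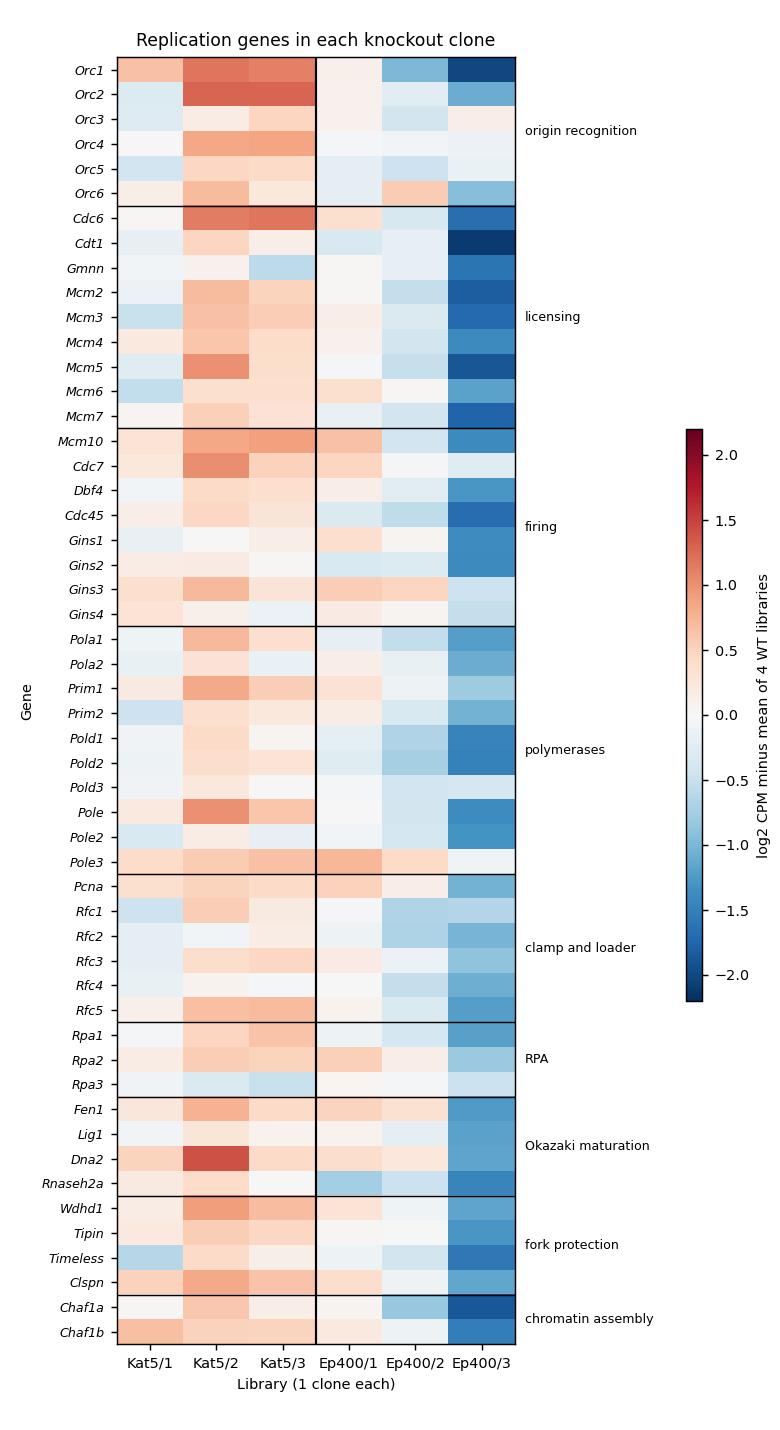
Log2 CPM of the 52 replication genes (rows, in order of role) in each knockout clone (columns), as the difference from the mean of the 4 WT libraries, red for higher and blue for lower. The columns of Kat5/2 and Kat5/3 are mostly red and that of Ep400/3 is blue in all rows but *Orc3*.

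When the 3 Kat5 ko clones were tested against WT with edgeR, none of the 52 genes passed an adjusted p of 0.05 in either direction. Among all genes tested, 17 (0.127%) were called higher and 50 (0.372%) lower. Of the replication genes 45 had a positive and 7 a negative log2-fold change, with a median of 0.28 against 3.2e-05 for all 13434 genes, and 19 had an unadjusted p under 0.05 (36.5%, against 22.3% of all genes). All 3 clones exceeded all WT libraries for 16 of the 52, namely *Orc1*, *Orc6*, *Mcm4*, *Mcm10*, *Gins3*, *Prim1*, *Pole3*, *Pcna*, *Rfc5*, *Rpa2*, *Fen1*, *Dna2*, *Wdhd1*, *Tipin*, *Clspn* and *Chaf1b*. These were 30.8% of the 52, against 9.67% of all genes. None of the 52 was below WT in all 3 clones (10.2% of all genes). Without clone Kat5/1, edgeR called 18 of the 52 higher (34.6%), when 9.77% of all genes were called higher, and 37 had both clones above WT (71.2%, against 24.9% of all genes). Both remaining clones were above WT for 16 genes without Kat5/2 (30.8%, against 13.7% of all genes). The number was 17 without Kat5/3 (32.7%, against 12%). Without Kat5/2, the median was 0.15, with 37 positive and 15 negative log2-fold changes, and none was called. DESeq2 called 6 of the 52 higher with all 3 clones (11.5%), namely *Orc1*, *Cdc6*, *Mcm10*, *Pole3*, *Dna2* and *Clspn*, when it called 3.61% of all genes higher.

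In the Ep400 ko clones, 1 of the 52 genes, *Rnaseh2a*, was called lower and none higher, when 797 genes (5.76%) were called lower and 1120 (8.09%) higher among all 13836 tested. Of the 52, 5 had a positive and 47 a negative log2-fold change, with a median of −0.34 (0.043 for all genes), and 7 had an unadjusted p under 0.05, a share of 13.5% that was under that of all genes (32.3%). In 5 genes, *Orc5*, *Mcm7*, *Pold2*, *Rpa1* and *Rnaseh2a*, all clones were below all WT libraries, a share of 9.62% that was under that of all genes (14.1%), and in none were all above (16.1% of all genes). The median without clone Ep400/3 was −0.074, with 33 negative and 19 positive, and without Ep400/1 it was −0.67, with 7 genes called lower (13.5%, against 6.11% of all genes) and 30 below WT in both clones (57.7%, against 20.8% of all genes). Clones Ep400/1 and Ep400/3 thus lay on opposite sides of the group's median. Both remaining clones were below WT for 6 genes without Ep400/2 (11.5%, against 17.9% of all genes). The number was 5 without Ep400/3 (9.62%, against 19.4%).

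A direct comparison of Ep400 ko with Kat5 ko clones, which used no WT library, gave lower values in Ep400 ko clones for 51 of the 52 genes, the exception being *Rpa3*, a subunit of the single-strand binding complex RPA, with 0.12 (SE 0.244, adjusted p = 0.756). The median was −0.70 (0.0063 for all 13587 genes). No gene of the 52 was called, when 404 of all genes (2.97%) were called lower and 590 (4.34%) higher, and 15 of the 52 had an unadjusted p under 0.05 (28.8%, against 32.4% of all genes). In 18 of the 52 every Ep400 ko clone was below every Kat5 ko clone (34.6%, against 18% of all genes), and in none was every one above (20.5% of all genes). The 18 were *Orc1*, *Orc4*, *Cdt1*, *Mcm4*, *Mcm7*, *Cdc45*, *Gins2*, *Pola1*, *Pold1*, *Pold2*, *Pole*, *Rfc5*, *Rpa1*, *Dna2*, *Rnaseh2a*, *Tipin*, *Clspn* and *Chaf1b*. The number was 37 without Kat5/1 (71.2%, against 28.9% of all genes) and 35 without Ep400/1 (67.3%, against 24.3%). It was 18 without Kat5/2 and 18 without Kat5/3 (34.6% each, against 21.2% and 20.2%). Without Ep400/2 it was 19 (36.5%, against 21.4%), and without Ep400/3 it was 18 (34.6%, against 21.4%). Without Ep400/3, 45 of 52 were still lower in Ep400 ko clones, with a median of −0.44. One fit of all 10 libraries, which shares the estimate of the spread, called 10 of the 52 lower (19.2%, against 12.1% of all genes), and DESeq2 called 5 (9.62%, against 7.75%). The comparisons of each knockout with WT share the WT libraries and are given side by side only.

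**Figure D3:**
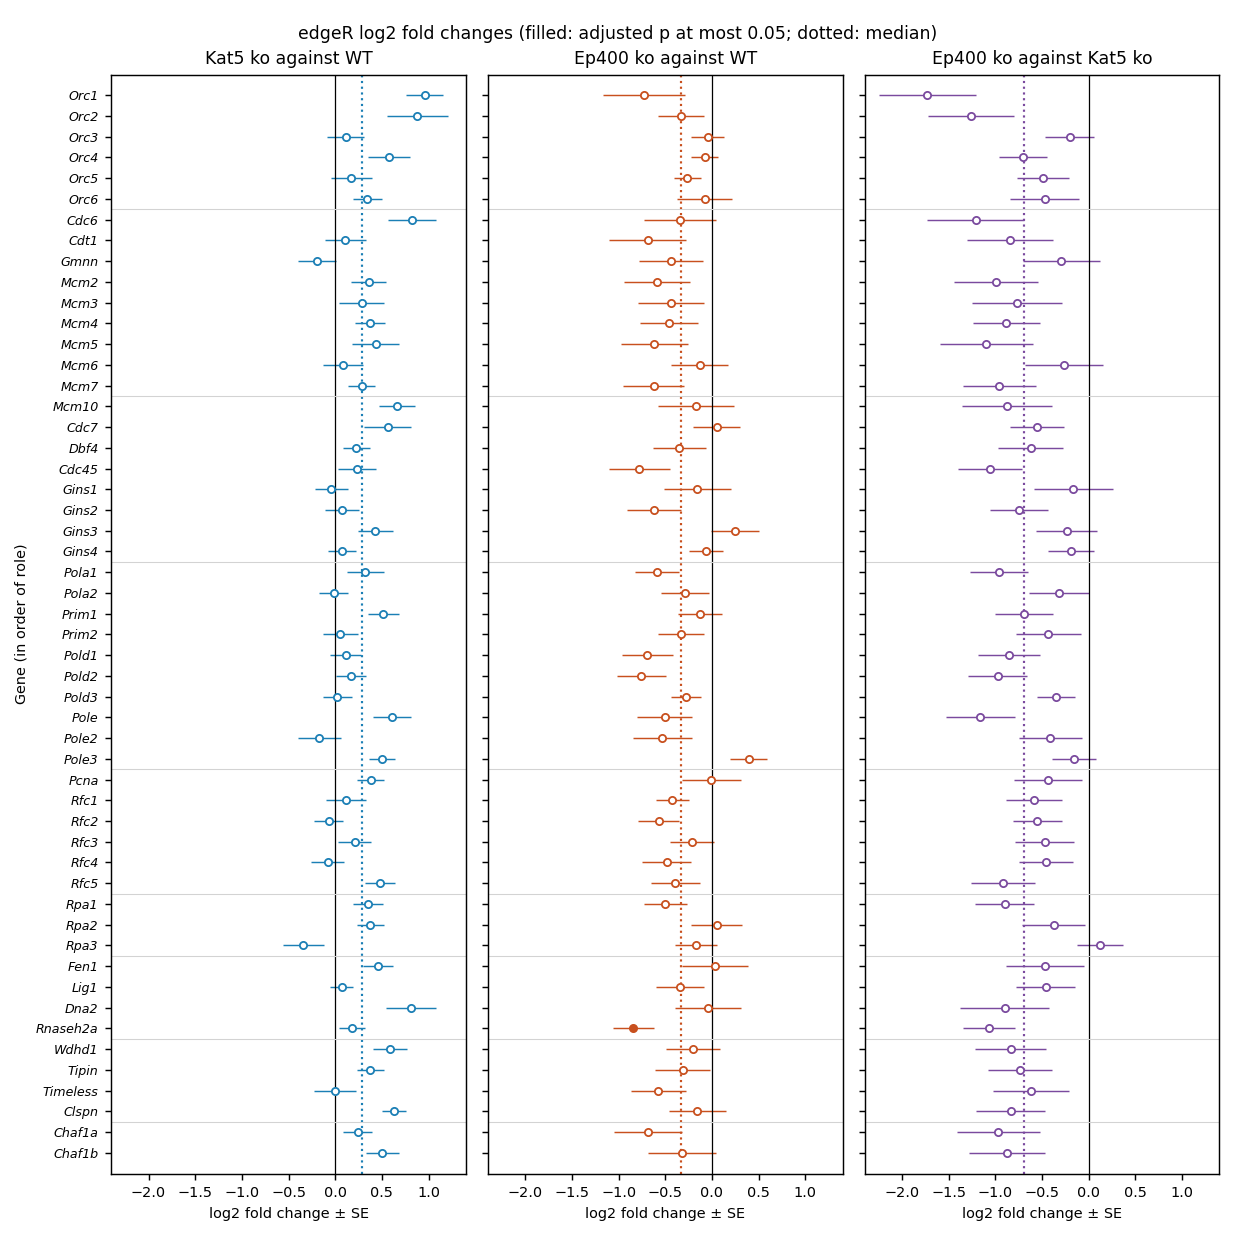
EdgeR log2-fold changes of the 52 replication genes with standard errors for Kat5 ko against WT (3 clones, 4 libraries), Ep400 ko against WT (3 and 4) and Ep400 ko against Kat5 ko (3 and 3), with the median as a dotted line and filled points for an adjusted p of at most 0.05. *Rnaseh2a* in Ep400 ko against WT is the filled point, and in the right panel all points except *Rpa3* lie left of 0.

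Among the origin recognition genes, *Orc1* (ENSMUSG00000028587, chromosome 4, 108579423 to 108614833, plus strand, GRCm38) had the largest log2-fold change of all 52 in Kat5 ko clones and in the direct comparison. Its levels were 13.1, 14.2, 10.1 and 12.9 CPM in the WT libraries, 19.5, 28.4 and 27.0 CPM in clones Kat5/1 to Kat5/3, and 13.5, 6.25 and 3.09 CPM in clones Ep400/1 to Ep400/3. The Kat5 ko clones were all above WT, whereas among the Ep400 ko clones Ep400/1 was within the WT range and the other two below it. The log2-fold change was 0.96 (SE 0.202, adjusted p = 0.0705) in Kat5 ko, −0.72 (SE 0.439, adjusted p = 0.284) in Ep400 ko, and −1.73 (SE 0.519, adjusted p = 0.0720) in Ep400 ko against Kat5 ko.

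*Orc2*, which codes for a further subunit of the complex, had 60.2, 70.0, 64.7 and 67.2 CPM in the WT libraries, 53.2, 159 and 158 CPM in clones Kat5/1 to Kat5/3, and 69.7, 55.7 and 30.6 CPM in clones Ep400/1 to Ep400/3. Clones Kat5/2 and Kat5/3 were both at more than 240% of the WT mean (242% and 241%) and Kat5/1 below all WT libraries, while the median log2 shift from the WT mean of all genes on the chromosome of *Orc2*, chromosome 1, was −0.25 in Kat5/1 and between −0.062 and 0.0027 in the other two. The groups overlapped, and the log2-fold change of 0.88 (SE 0.326, adjusted p = 0.169) was not called. It was −0.33 (SE 0.249, adjusted p = 0.379) in Ep400 ko clones, where Ep400/1 was within the WT range and the other clones below it. In the annotation, 29.8% of the exon bases of *Orc2* overlap with *Nif3l1* on the opposite strand, and the strand setting of the counting is not given in the sources used here. The remaining subunits *Orc3*, *Orc4*, *Orc5* and *Orc6* had log2-fold changes of 0.11 to 0.58 in Kat5 ko and −0.27 to −0.044 in Ep400 ko clones. *Orc4* was likewise high in Kat5/2 and Kat5/3, with 65.4 and 66.3 CPM, and had 32.3 to 42.6 CPM in all other libraries. Unlike *Orc2*, it was within the WT range in Kat5/1, and in Ep400/3 it was at 91.4% of the WT mean, against 46.7% for *Orc2*.

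Of the licensing factors, *Cdc6*, the ATPase that loads the helicase together with ORC, had 30.9, 33.3, 26.7 and 32.7 CPM in the WT libraries, 31.4, 67.3 and 69.4 CPM in clones Kat5/1 to Kat5/3, and 39.5, 24.2 and 9.68 CPM in clones Ep400/1 to Ep400/3. It was higher than in all WT libraries in Kat5/2 (218% of the WT mean) and Kat5/3 (225%), but not in Kat5/1, which was within the WT range. Ep400/1 was above, Ep400/2 and Ep400/3 below all WT libraries. The log2-fold change was 0.82 (SE 0.259, adjusted p = 0.126) in Kat5 ko, −0.34 (SE 0.387, adjusted p = 0.578) in Ep400 ko and −1.21 (SE 0.519, adjusted p = 0.154) in the direct comparison. *Cdt1*, its partner in loading, and *Gmnn* had log2-fold changes of 0.11 and −0.20 in Kat5 ko and of −0.69 and −0.44 in Ep400 ko clones, none of them called.

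The subunits of the Mcm helicase encircle and unwind DNA as a ring in which each is present once. *Mcm2* had 222, 237, 215 and 205 CPM in the WT libraries, 201, 354 and 309 CPM in clones Kat5/1 to Kat5/3, and 222, 153 and 62.6 CPM in clones Ep400/1 to Ep400/3. Values of *Mcm3* were 245, 263, 256 and 248 CPM in the WT libraries, 180.0, 394 and 370.1 CPM in clones Kat5/1 to Kat5/3, and 279, 204 and 77.6 CPM in clones Ep400/1 to Ep400/3. For both genes Kat5/2 and Kat5/3 were above and Kat5/1 below the WT range, whereas Ep400/2 and Ep400/3 were below it. *Mcm4* had 217, 219.5, 170.1 and 233 CPM in the WT libraries, 242, 317 and 275 CPM in clones Kat5/1 to Kat5/3, and 222, 157 and 78.9 CPM in clones Ep400/1 to Ep400/3, so that all Kat5 ko clones exceeded WT. *Mcm5* had 235, 230.1, 224 and 229 CPM in the WT libraries, 190.4, 462 and 299 CPM in clones Kat5/1 to Kat5/3, and 225, 161 and 62.0 CPM in clones Ep400/1 to Ep400/3. Its 4 WT libraries lay closely together, and Kat5/2 reached 201% and Ep400/3 27.0% of their mean.

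*Mcm6* had 288, 295, 315 and 310.3 CPM in the WT libraries, 206, 384 and 390.4 CPM in clones Kat5/1 to Kat5/3, and 386, 308 and 133 CPM in clones Ep400/1 to Ep400/3. Clone Ep400/1 was above and Ep400/2 within the WT range, which *Mcm3* also showed for Ep400/1 but no other subunit for Ep400/2. *Mcm7* had 259, 281, 286 and 249 CPM in the WT libraries, 279, 386 and 336 CPM in clones Kat5/1 to Kat5/3, and 240.1, 203 and 79.3 CPM in clones Ep400/1 to Ep400/3, and all its Ep400 ko values were below WT. In the direct comparison the log2-fold changes were −0.99 for *Mcm2*, −0.77 for *Mcm3*, −0.88 for *Mcm4*, −1.10 (SE 0.498, adjusted p = 0.171) for *Mcm5*, −0.26 (SE 0.420, adjusted p = 0.691) for *Mcm6* and −0.96 for *Mcm7*. None was called in any of the 3 comparisons, and those against WT ranged from 0.082 to 0.43 in Kat5 ko and from −0.63 to −0.13 in Ep400 ko clones.

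Because all subunits are compared within a library, a factor common to all of them leaves their shares unchanged. Of the counts per exon length summed over *Mcm2* to *Mcm7*, *Mcm6* took 18.3, 18.1, 20.1 and 19.5% in the WT libraries, 14.8, 15.5 and 18.4% in Kat5/1 to Kat5/3 and 22.9, 24.2 and 25.1% in Ep400/1 to Ep400/3. The Ep400 ko clones did not overlap with the WT libraries or the Kat5 ko clones. Among the Ep400 ko clones the *Mcm6* share rose as the summed level of the 52 genes fell (4700, 3695 and 1889 CPM). Whether the share depends on that level was not tested. The mean share was 19.0% ± 0.975 (SD, n = 4) in WT and 24.1% ± 1.11 (SD, n = 3) in Ep400 ko (two-sided exact permutation p = 0.0286, the smallest that 3 against 4 libraries allow, and 0.225 after adjustment over 18 comparisons). *Mcm5* had the opposite pattern, with 17.5, 16.5, 16.7 and 16.8% in WT, 15.9, 21.8 and 16.5% in Kat5 ko and 15.6, 14.8 and 13.7% in Ep400 ko libraries, and the Ep400 ko clones again did not overlap with WT (exact permutation p = 0.0286, adjusted p = 0.225). The shares were examined after the values of *Mcm6* had been seen, and no adjusted p in this family was under 0.05.

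**Figure D4:**
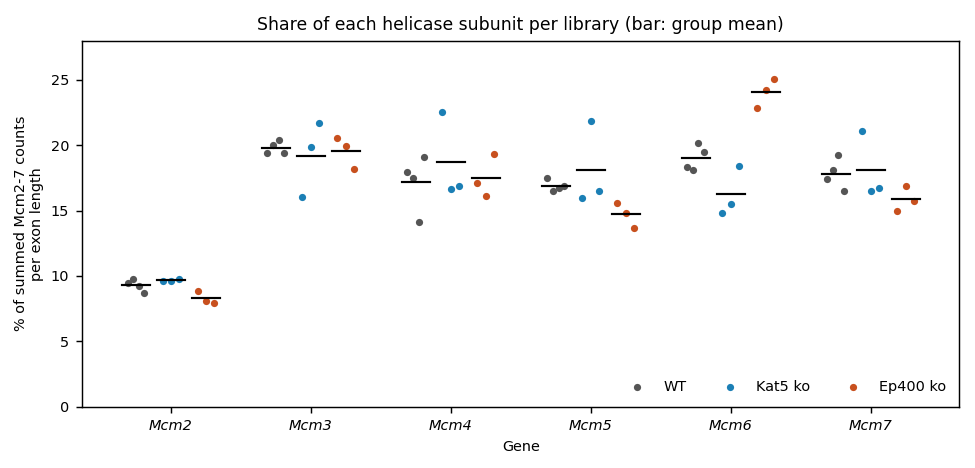
Share of each Mcm subunit in the summed counts per exon length of *Mcm2* to *Mcm7* (percent), by library (points: 4 WT, 3 Kat5 ko, 3 Ep400 ko) with the group mean as a bar. For *Mcm6* the Ep400 ko clones lie at 22.9% to 25.1%, above all other libraries, and for *Mcm5* at 13.7% to 15.6%, below all others. Differences between subunits also depend on the exon lengths used, 6956 bases for *Mcm2* and 3589 to 4666 bases for the other subunits.

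Among the factors of origin firing, *Mcm10*, which binds the helicase when forks are started, had 41.5, 50.1, 34.1 and 45.0 CPM in the WT libraries, 51.8, 75.9 and 78.9 CPM in clones Kat5/1 to Kat5/3, and 66.3, 31.6 and 15.9 CPM in clones Ep400/1 to Ep400/3. All Kat5 ko clones were above WT, and the Ep400 ko clones spread from above to below the WT range. The log2-fold change was 0.66 (SE 0.192, adjusted p = 0.109) in Kat5 ko and −0.17 (SE 0.405, adjusted p = 0.805) in Ep400 ko clones.

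*Cdc45*, which together with Mcm and GINS forms the active helicase, had 50.5, 64.5, 34.7 and 50.5 CPM in the WT libraries, 54.0, 67.2 and 59.3 CPM in clones Kat5/1 to Kat5/3, and 39.2, 33.2 and 15.3 CPM in clones Ep400/1 to Ep400/3. The Kat5 ko clones were within or slightly above the WT range and the Ep400 ko clones at its low end or below, so that both knockouts did not overlap with each other. The log2-fold changes were 0.23 (SE 0.206, adjusted p = 0.534) in Kat5 ko, −0.78 (SE 0.327, adjusted p = 0.141) in Ep400 ko and −1.06 (SE 0.343, adjusted p = 0.0852) between the knockouts. *Cdc7*, *Dbf4* and the GINS genes *Gins1*, *Gins2*, *Gins3* and *Gins4* ranged from −0.041 to 0.56 in Kat5 ko and from −0.62 to 0.24 in Ep400 ko clones, and none was called. *Gins2* shares 67.3% of its exon bases with *Gse1* on the opposite strand, and its values are uncertain for that reason.

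In the group of polymerases, *Pole*, which codes for the catalytic subunit of the leading-strand polymerase epsilon, had 86.7, 75.2, 109 and 90.1 CPM in the WT libraries, 103, 180.5 and 137 CPM in clones Kat5/1 to Kat5/3, and 88.8, 67.3 and 34.4 CPM in clones Ep400/1 to Ep400/3. Kat5/2 and Kat5/3 were above the WT range and Ep400/2 and Ep400/3 below it. The log2-fold changes were 0.60 (SE 0.204, adjusted p = 0.147), −0.51 (SE 0.291, adjusted p = 0.261) and −1.16 (SE 0.368, adjusted p = 0.0822) in Kat5 ko, Ep400 ko and the direct comparison, respectively. *Pole3*, a small histone-fold subunit of the same enzyme, was higher than WT in 5 of 6 clones and had positive log2-fold changes in both knockouts, 0.50 (SE 0.140, adjusted p = 0.103) and 0.39 (SE 0.200, adjusted p = 0.210). *Pole2* was negative in both, with −0.17 and −0.53.

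For polymerase delta, which extends lagging strands, the catalytic subunit gene *Pold1* had 85.8, 97.4, 84.9 and 70.7 CPM in the WT libraries, 80.1, 113 and 87.4 CPM in clones Kat5/1 to Kat5/3, and 73.3, 53.4 and 30.2 CPM in clones Ep400/1 to Ep400/3. The accessory subunit gene *Pold2* had 134, 146, 115 and 116 CPM in the WT libraries, 118, 166 and 156 CPM in clones Kat5/1 to Kat5/3, and 105, 76.3 and 45.5 CPM in clones Ep400/1 to Ep400/3. All Ep400 ko clones were below all WT libraries for *Pold2*, and for *Pold1* Ep400/1 was within the WT range. The log2-fold changes in Ep400 ko were −0.69 (SE 0.273, adjusted p = 0.119) for *Pold1* and −0.76 (SE 0.260, adjusted p = 0.0851) for *Pold2*, and in Kat5 ko 0.11 (SE 0.165, adjusted p = 0.731) and 0.17 (SE 0.157, adjusted p = 0.559). The third subunit gene *Pold3* and the genes for polymerase alpha and primase, *Pola1*, *Pola2*, *Prim1* and *Prim2*, were between −0.018 and 0.52 in Kat5 ko and between −0.59 and −0.12 in Ep400 ko clones.

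**Figure D5:**
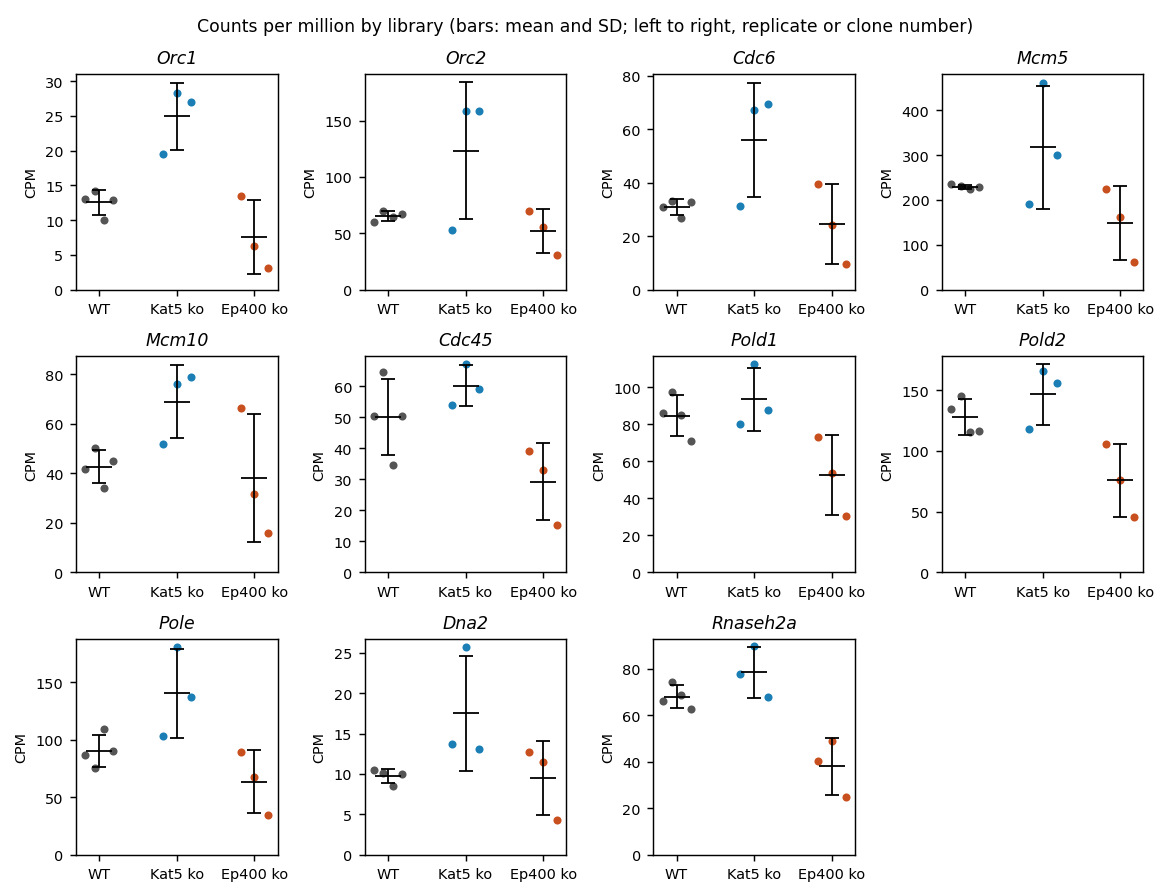
CPM in each library for the genes called in a comparison or among the 5 largest log2-fold changes of one, with points in order of replicate or clone number and bars for the mean and SD (WT n = 4, Kat5 ko n = 3, Ep400 ko n = 3). In every panel Ep400/3 is the lowest library, and for *Orc1*, *Mcm10* and *Dna2* all Kat5 ko clones are above WT.

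*Pcna*, the clamp that tethers polymerases to DNA, was at 211 to 232 CPM in Kat5 ko clones and 135 to 195 CPM in WT libraries. Clone Ep400/1 was above, Ep400/2 within and Ep400/3 below the WT range (235, 183 and 80.7 CPM). Its log2-fold change was 0.38 (SE 0.146, adjusted p = 0.181) in Kat5 ko and −0.0056 (SE 0.317, adjusted p = 0.993) in Ep400 ko clones. The annotation names 2 pseudogenes of *Pcna*, with which reads could be shared. The genes *Rfc1* to *Rfc5* of the loader that opens the clamp were between −0.082 and 0.48 in Kat5 ko and all negative in Ep400 ko clones, between −0.57 and −0.22. Of the RPA genes, *Rpa1* and *Rpa2* had 0.35 and 0.38 in Kat5 ko and −0.50 and 0.050 in Ep400 ko clones, whereas *Rpa3* had −0.34 and −0.17.

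The maturation of Okazaki fragments held the gene that was called. *Rnaseh2a* (ENSMUSG00000052926, chromosome 8, 84956610 to 84969767, minus strand, GRCm38), which codes for the catalytic subunit of the ribonuclease that removes ribonucleotides from DNA, had 65.9, 74.2, 68.8 and 62.7 CPM in the WT libraries, 77.6, 89.6 and 67.9 CPM in clones Kat5/1 to Kat5/3, and 40.2, 48.9 and 24.7 CPM in clones Ep400/1 to Ep400/3. All Ep400 ko clones were below all other libraries, and Kat5 ko clones were within or above the WT range. The means were 67.9 ± 4.89 CPM (SD, n = 4) in WT, 78.4 ± 10.9 (SD, n = 3) in Kat5 ko and 37.9 ± 12.3 (SD, n = 3) in Ep400 ko. The log2-fold change was −0.84 (SE 0.222, adjusted p = 0.0397) in Ep400 ko, 0.18 (SE 0.140, adjusted p = 0.487) in Kat5 ko and −1.07 (SE 0.279, adjusted p = 0.0565) between the knockouts. The call in Ep400 ko was lost when any WT library or clone Ep400/1 was left out (adjusted p = 0.0626 to 0.0959), and also with offsets for the median shift of each chromosome (−0.72, adjusted p = 0.0526). The median log2 shift of all genes on chromosome 8 was −0.22, −0.010 and −0.16 in Ep400/1 to Ep400/3. A further protein-coding gene in the annotation, *Gm49661*, overlaps with 9.66% of the exon bases of *Rnaseh2a* on the same strand. On the opposite strand *Prdx2* overlaps with 5.04% of them, and the strand setting of the counting is not known. The promoter window of *Rnaseh2a* held no E2F letters of the forms searched.

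*Dna2* had 10.5, 10.1, 8.45 and 9.98 CPM in the WT libraries, 13.7, 25.7 and 13.1 CPM in clones Kat5/1 to Kat5/3, and 12.7, 11.4 and 4.31 CPM in clones Ep400/1 to Ep400/3. All Kat5 ko clones were above WT, with Kat5/2 at 263% of its mean, and the Ep400 ko clones were above it in 2 cases and below it in Ep400/3. The log2-fold changes were 0.81 (SE 0.265, adjusted p = 0.137) in Kat5 ko and −0.040 (SE 0.352, adjusted p = 0.951) in Ep400 ko clones. *Fen1*, the main flap nuclease, and *Lig1*, the ligase that joins the fragments, had 0.46 (SE 0.163, adjusted p = 0.158) and 0.068 (SE 0.121, adjusted p = 0.780) in Kat5 ko clones. As 78.8% of the exon bases of *Fen1* overlap with the antisense gene *Gm10143*, its counts are uncertain.

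At the fork, *Clspn*, which codes for the checkpoint mediator Claspin, had 54.1, 67.9 and 59.4 CPM in the Kat5 ko clones and 36.3 to 41.2 CPM in WT libraries. With 0.63 (SE 0.132, adjusted p = 0.0705) it came as close to a call as *Orc1*. Its Ep400 ko values of 50.2, 35.4 and 17.2 CPM were above WT in Ep400/1 and below in the other clones. *Wdhd1*, which links helicase and polymerase alpha, and the partners *Timeless* and *Tipin* had log2-fold changes of 0.59, 0.00041 and 0.37 in Kat5 ko and of −0.20, −0.57 and −0.31 in Ep400 ko clones. *Chaf1a* and *Chaf1b*, subunits of the chromatin assembly factor that deposits histones behind the fork, had 0.24 and 0.51 in Kat5 ko and −0.68 and −0.32 in Ep400 ko clones. Of the *Chaf1a* exon bases, 52.5% overlap with *Ubxn6* on the opposite strand.

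Genes with and without the E2F letters were also set side by side within each clone, with no test of the difference. In Ep400/3 the median log2 difference from WT was −1.32 for the 11 with and −1.13 for the 32 without the letters. In Kat5/2 the medians were 0.53 and 0.54, in Kat5/3 0.37 and 0.42, and in Ep400/2 −0.31 and −0.28. They were −0.18 and 0.022 in Kat5/1 and 0.083 and 0.082 in Ep400/1. In Kat5/2, Kat5/3, Ep400/2 and Ep400/3 both sets thus lay on the same side of WT, and in Kat5/1 they did not. Only the exact letters given above were searched, so windows without them can hold other forms of the motif. The split therefore cannot separate genes under E2F control from others, and a link with E2F was not tested.

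Of 44 other replication genes, 43 were tested. In Kat5 ko clones edgeR called none, 35 had a positive log2-fold change and the median was 0.34. At an unadjusted p under 0.05 there were 20, against 22.3% of all genes. DESeq2 called 3 higher and 2 lower, against 3.61% and 5.85% of all genes. In Ep400 ko clones 3 were called lower, with a median of −0.29, namely the topoisomerase genes *Top1*, with −0.69 (SE 0.144, adjusted p = 0.0177), and *Top2a*, with −0.75 (SE 0.180, adjusted p = 0.0286), and the telomere replication gene *Ctc1*, with −0.97 (SE 0.150, adjusted p = 0.00677). Among all genes 5.76% were called lower. DESeq2 called 4 lower and 0 higher, against 8.55% and 11.1% of all genes. Between the knockouts *Top1* was called, with −1.30 (SE 0.212, adjusted p = 0.0286), when 2.97% of all genes were called lower. DESeq2 called 8 lower and 1 higher there, against 7.75% and 11.6% of all genes. The clone medians of these 43 genes followed those of the 52 genes, with 0.027, 0.60 and 0.42 in the Kat5 ko and 0.038, −0.34 and −0.86 in the Ep400 ko clones.

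Among 29 regulators of S-phase entry, edgeR called none in Kat5 ko clones and 1 in Ep400 ko clones, *Cdk6*, a kinase of the cyclin D complexes, with −1.32 (SE 0.293, adjusted p = 0.0225). In Ep400 ko clones 5.76% of all genes were called lower, and DESeq2 called 2 of the 29 lower, against 8.55% of all genes. In Kat5 ko clones 13 had an unadjusted p under 0.05 (22.3% of all genes), and DESeq2 called 7 higher (3.61% of all genes). The clone medians of the 29 were 0.13, 0.47 and 0.37 in Kat5 ko and −0.095, −0.028 and −0.85 in Ep400 ko clones, and 14 of the 29 were above the WT mean in Ep400/2. This list mixes genes that promote S-phase entry with inhibitors of it, such as *Rb1* and *Cdkn1b*, so its medians have no single meaning. Between the knockouts *Mybl2*, a transcription factor of the cell cycle, and *Ccne1*, the gene for cyclin E, were called lower in Ep400 ko clones, with −2.21 (SE 0.465, adjusted p = 0.0401) and −1.96 (SE 0.464, adjusted p = 0.0485). Among all genes 2.97% were called lower there. DESeq2 called 9 of the 29 lower in this comparison, against 7.75% of all genes. A list of 18 genes of G2 phase and mitosis had clone medians of 0.20, 0.29 and 0.30 in Kat5 ko and −0.046, −0.36 and −0.94 in Ep400 ko clones. In Ep400/3, all 18 were below all WT libraries (34.5% of all genes). Of these, *Bub1b*, a spindle checkpoint kinase, and *Cenpe*, a kinetochore motor, were called lower in Ep400 ko against WT, with −0.85 (SE 0.168, adjusted p = 0.0153) and −0.63 (SE 0.154, adjusted p = 0.0308), and also against Kat5 ko clones. Among all genes 5.76% and 2.97% were called lower in these comparisons. DESeq2 called 2 and 5 of the 18 lower, against 8.55% and 7.75% of all genes.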

How the data were processed

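Polyadenylated RNA of 10 O9-1 libraries was sequenced by the authors as paired reads. The submitters' processing notes name bcl2fastq 2.20, STAR 2.7.3, R 4.2.1 and DESeq2 1.36.0 and the build mm10. The deposited counts are whole numbers of reads per gene that the authors made. The counting program, its strand setting and the annotation are not given in the sources used here. The authors' tables of normalized values were not used.

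With R 4.3.3 and edgeR 4.0.16, each comparison was fitted on its own libraries (filterByExpr, TMM, quasi-likelihood test, Benjamini-Hochberg adjustment over all genes tested), and a call is an adjusted p of at most 0.05. CPM are counts scaled to equal library size with TMM factors over all libraries, and log2 values had a prior count of 2. Exon lengths and overlaps came from GENCODE M21 (42462 of 43346 genes matched by identifier). The code was tested on simulated data. Replicates in WT are independent samples of the unedited line, and in knockouts they are clones. Tests against WT weigh a difference against a spread estimated from both kinds together. No unedited clone was among the libraries, so these p-values do not set the edit apart from differences among clones. Depth was 30968945 to 48301792 counts per library.

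The 52 genes and all lists were chosen with earlier results of these data known. Values by library are given for genes called, for the 5 largest absolute log2-fold changes of each comparison, for genes with all 6 clones on 1 side of WT (none of the 52), and for *Mcm2* to *Mcm7*. Alternatives covered DESeq2 1.42.0, other scalings, no filter, 1 fit of all libraries, chromosome offsets, a replicate block and each library left out. Counts of genes whose libraries do not overlap, without 1 clone each, were added after seeing the data.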

Additional observations from a re-analysis of the deposited data

Results flagged for a closer look

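In 4 of the 52 genes (7.69%), every Kat5 ko clone was above and every Ep400 ko clone below the WT mean, as in 6.1% of all genes. These were *Mcm7*, with a log2 difference of Ep400 ko from Kat5 ko clones of −0.96 (SE 0.394, adjusted p = 0.142), *Cdc45*, with −1.06 (SE 0.343, adjusted p = 0.0852), *Pole*, with −1.16 (SE 0.368, adjusted p = 0.0822), and *Rnaseh2a*, with −1.07 (SE 0.279, adjusted p = 0.0565). The difference between the knockouts was tested with edgeR and was not called for any of them. *Rnaseh2a* in Kat5/3 (100.01%) and *Pole* in Ep400/1 (98.5%) were close to the WT mean. In none of the 16 genes did 1 WT library stand apart from the other 3 by Dixon's criterion.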

How the results depend on the processing

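The medians of the 52 genes kept their sign under all alternatives, with one library left out at a time giving 0.15 to 0.41 for Kat5 ko, −0.67 to −0.074 for Ep400 ko and −0.94 to −0.44 for Ep400 ko against Kat5 ko. Numbers of calls depended on the method and on single clones. DESeq2 called 6 higher, 2 lower and 5 lower of the 52 genes in these comparisons (11.5%, 3.85% and 9.62%), against 0, 1 and 0 with edgeR. Of all genes DESeq2 called 3.61% higher, 8.55% lower and 7.75% lower, and edgeR 0.127%, 5.76% and 2.97%. For Ep400 ko against Kat5 ko, 2 were called lower without the filter on low counts (3.85%, against 3.19% of all genes). In 1 fit of all libraries 10 were called lower (19.2%, against 12.1% of all genes). For Ep400 ko against WT 0 were called with chromosome offsets, when 5.56% of all genes were called lower. With one library left out, calls ranged over 0 to 18 (18 without Kat5/1), 0 to 7 (7 without Ep400/1) and 0 to 2 (2 without Kat5/1, 1 without Ep400/1). The 18 and the 7 were 34.6% and 13.5% of the 52, against 9.77% of all genes called higher and 6.11% called lower. Between the knockouts the 2 and the 1 were 3.85% and 1.92%, against 8.71% and 0.653% of all genes called lower. The cause was not tested. The counts of genes whose groups do not overlap, 16, 5 and 18, became 37 without Kat5/1, 30 without Ep400/1, and 37 without Kat5/1 or 35 without Ep400/1, in the same order. The shares of all genes were 9.67%, 14.1% and 18% with all clones, and 24.9%, 20.8%, 28.9% and 24.3% without these clones. With each other clone left out in turn, the counts were 16 and 17 for Kat5 ko (13.7% and 12% of all genes). They were 6 and 5 for Ep400 ko (17.9% and 19.4%) and 18 or 19 between the knockouts (20.2% to 21.4%). Kat5/1 and Ep400/1 were the clones nearest WT in their medians, so the rise without them is no separate evidence. Replicate numbers did not pair the libraries (correlations of deviations −0.102 to 0.225), and a replicate block gave 0, 0 and 0 calls (for *Rnaseh2a* in Ep400 ko against WT an adjusted p of 0.0969 with edgeR), with medians of 0.28, −0.43 and −0.73. Of all genes, 0%, 1.26% and 1.57% were called with the block. With library size as the scaling, the clone medians were 0.39 in Kat5/2, 0.27 in Kat5/3 and −1.09 in Ep400/3. That of Ep400/2 ranged from −0.32 to −0.23 when a WT library was left out. Of the 52 genes, 16, 19 and 6 turned the sign of their log2-fold change when at least one of the libraries was left out, with 8 doing so without Kat5/2 in Kat5 ko and 14 without Ep400/3 in Ep400 ko. Among the 16 genes with values by library these were *Mcm6* (ranges −0.054 to 0.33 in Kat5 ko, −0.46 to 0.20 in Ep400 ko, −0.59 to 0.073 between them), *Pold1* in Kat5 ko (−0.035 to 0.21), and, without Ep400/3, *Cdc6* (−0.87 to 0.037), *Mcm10* (−0.85 to 0.19) and *Dna2* (−0.31 to 0.31) in Ep400 ko. The lowest raw count of any of the 52 genes in any library was 124.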
